A study of Caenorhabditis elegans with 3 samples.

Results

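The genes described here are 10 antioxidant genes of the nematode Caenorhabditis elegans: the superoxide dismutases sod-1, sod-2, sod-3, sod-4 and sod-5, the catalases ctl-1, ctl-2 and ctl-3, the peroxiredoxin prdx-2 and gcs-1, which makes the precursor of glutathione. They were chosen by name, and a gene's value is the mean log2 value of the probe sets (groups of array probes summarised as 1 value) that the platform annotation assigns to that gene alone. By this rule 8 of the 10 genes had a value, from 9 probe sets, among 17118 genes on the array. The catalases ctl-1 and ctl-3 had none, because the probe set that reads them is annotated to both.

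Wild-type young adult hermaphrodites, 3 days old, were kept at 20 °C for 24 h in a salt medium without food. One set was exposed to GO, one to rGO, and one was the control. The control's own title does not state 24 h, but the shared treatment protocol does. The labels give only these abbreviations; in the published study GO is known to be graphene oxide, an oxidised single-layer carbon sheet, and rGO its chemically reduced form. No dose is stated in the sources used here. RNA came from whole worms, pooled over animals and tissues, so fewer cells of a type and less RNA per cell cannot be told apart; each condition was read by 1 Affymetrix array. No spread between replicates exists, so no p-value is given, and "higher" or "lower" compares single arrays.

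Superoxide dismutases convert superoxide to hydrogen peroxide, and catalases and peroxiredoxins break that peroxide down. Glutathione supplies reducing power for a parallel route, and its synthesis is limited by the enzyme that gcs-1 encodes. In C. elegans gcs-1 is a standard reporter gene of the transcription factor SKN-1, the counterpart of mammalian Nrf factors, whereas sod-3 is a standard reporter of the FOXO factor DAF-16.

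Glutathione synthesis and oxidant removal did not move as a block. The gene gcs-1 stood 3.67-fold higher than control after GO and 4.21-fold higher after rGO. On the rGO array the extracellular dismutase gene sod-4 was also higher, by 2.22-fold, and the peroxisomal catalase gene ctl-2 was 1.82-fold higher. The main cytosolic dismutase sod-1 and the mitochondrial dismutase sod-2 were lower by less than 2-fold on both exposed arrays. For sod-3 the exposed arrays read below the brightest probe set with no target, and for sod-5 all 3 arrays did.

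Differences are in log2 units, in which 1 unit is 2-fold, and a difference of at least 1 unit was counted as a rule of size, not as a test. A gene entered a comparison if at least 1 of the 2 arrays read 6.79 or more, which is the median over all genes and arrays. A gene can therefore enter only through the array on which it is bright, while a dim gene with no difference is left out. Among 8 probe sets without a target in worm RNA the lowest value was 3.80 and the highest 6.24. A value below 6.24 was treated as not above background, although the background of a single gene's probe set is not known. Of the 8 measured genes, 6 passed the filter in every comparison; sod-3 and sod-5 did not. Values of different genes come from different probes, so levels are compared only between arrays.

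**Figure D1:**
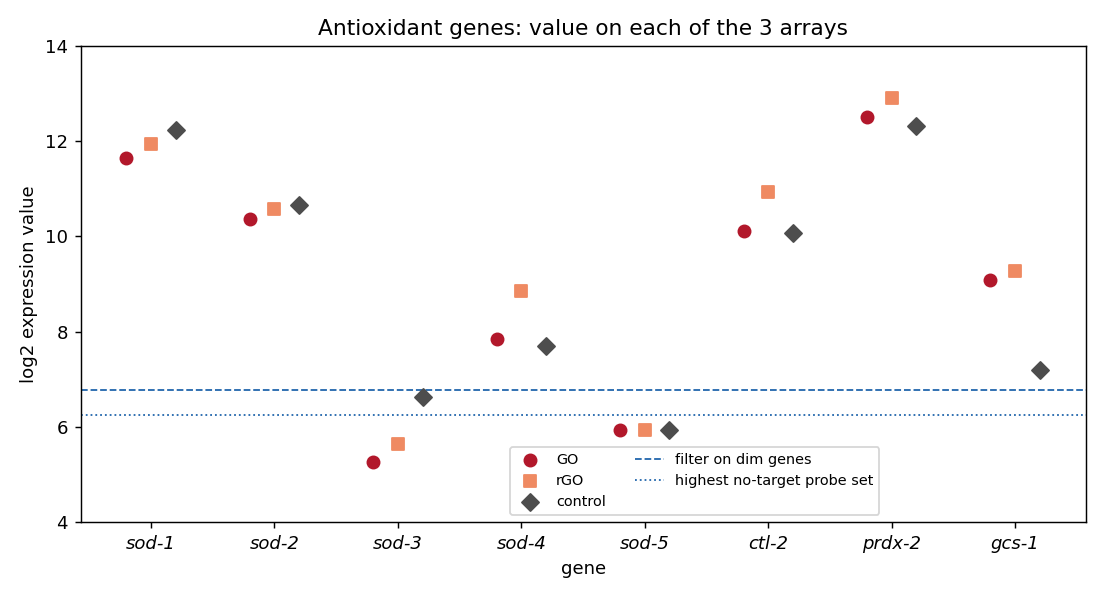
Deposited log2 expression value (vertical axis) of the 8 measured antioxidant genes (horizontal axis) on the GO array (circles), the rGO array (squares) and the control array (diamonds), 1 array each, with no error bars because there are no replicates. The dashed line is the filter on dim genes at 6.79 and the dotted line the highest no-target probe set at 6.24; gcs-1 lies near 9 on both exposed arrays and at 7.20 on the control array, and sod-5 lies below both lines on all 3.

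The medians over worm probe sets were 6.92 (GO), 6.86 (rGO) and 6.87 (control), which the authors' normalisation sets nearly equal. The added controls differed: all 24 probe sets for poly-A transcripts put in before labelling were lower than in control, with median differences of -1.55 (GO) and -0.98 (rGO). All 18 hybridisation control probe sets were lower too, with medians of -0.62 (GO) and -0.93 (rGO). The part of these shifts in the gene values was not tested. Equal values on 2 arrays were common, at 20.99% of worm probe sets for GO and control, so a difference of 0.00 often means that the summary did not separate the arrays.

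The first question was how antioxidant genes stood after GO exposure. Of the 6 genes above the filter, 1 was at least 2-fold higher after GO than in control, against 8.43% of 9303 genes. None was at least 2-fold lower, against 9.76% of all genes. The median difference of the 6 was 0.11, and that of all genes 0.03; over all 8 measured genes, with no filter, it was also 0.03, and sod-3 was then counted lower. With 6 genes, these counts say nothing about the group beyond the genes named.

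The gene counted was gcs-1. Its value was 9.08 on the GO array, 9.28 on the rGO array and 7.20 on the control array, so both exposed arrays were high and close to each other. The differences from control were 1.88 for GO and 2.07 for rGO; 2.23% and 1.24% of all genes above the filter were higher by as much or more. Both of its probe sets were higher on both exposed arrays, by different amounts. The first read 9.50 (GO), 9.43 (rGO) and 7.07 (control), and the second, whose probes are shared between transcripts by the maker's naming, read 8.66, 9.13 and 7.34 on the same arrays. The 2 probe sets were 1.12 apart in GO minus control and 0.57 apart in rGO minus control. In GO minus rGO they differed in sign, at 0.08 and -0.47, so no order of the exposed arrays was established for gcs-1.

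Among the dismutases, sod-1 encodes the main copper-zinc enzyme of the cytosol. It read 11.66 on the GO array, 11.95 on the rGO array and 12.23 on the control array, with differences of -0.57 and -0.28 from control. For sod-2, a manganese enzyme of the mitochondria, the values were 10.36, 10.57 and 10.65 in the same order of arrays, with differences of -0.29 and -0.08. For both genes the control array was the brightest and the GO array the dimmest, and every difference was under 2-fold. The only probe set of sod-1 shares probes between transcripts.

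The second mitochondrial manganese dismutase, sod-3, read 5.27 on the GO array, 5.63 on the rGO array and 6.63 on the control array. Only the control array lay above the no-target level of 6.24, and it lay below the filter of 6.79. The plain differences were -1.36 for GO and, at almost exactly 2-fold, -1.0002 for rGO, but with the exposed arrays at background the fold is known only to be at least 1.31-fold lower on each. The minor cytosolic dismutase sod-5 had the same value of 5.94 on all 3 arrays, below the no-target level, and no change could be seen at that brightness.

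The extracellular copper-zinc dismutase gene sod-4 was bright on 1 exposed array only. It read 7.85 on the GO array, 8.85 on the rGO array and 7.70 on the control array. The rGO array was thus the high one, with a difference from control of 1.15, while the GO array differed from control by 0.15. Of all genes above the filter, 5.78% were higher by at least as much on the rGO array.

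Turning to the enzymes that remove hydrogen peroxide, ctl-2 encodes the catalase of the peroxisome and read 10.12 on the GO array, 10.93 on the rGO array and 10.06 on the control array. Again rGO was high and the other two were close, with differences from control of 0.06 (GO) and 0.86 (rGO). Its only probe set shares probes between transcripts by the maker's naming. The peroxiredoxin gene prdx-2, whose product reduces peroxides in the cytosol, read 12.50, 12.90 and 12.32 on the GO, rGO and control arrays. Its differences were 0.18 for GO and 0.59 for rGO, both under 2-fold.

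**Figure D2:**
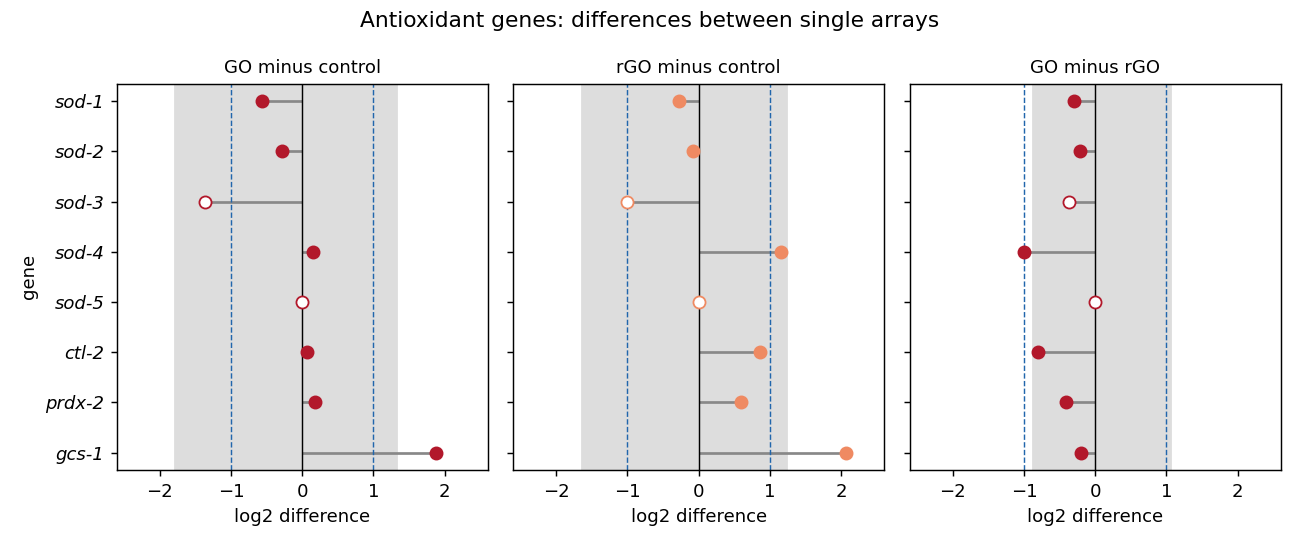
Log2 difference (horizontal axes) of each measured antioxidant gene (vertical axis) for GO minus control, rGO minus control and GO minus rGO, each between 2 single arrays. Filled points passed the filter on dim genes and open points (sod-3 and sod-5) did not; grey bands span the 5th to the 95th percentile of all genes above the filter and dashed lines mark 2-fold. In both comparisons with control gcs-1 lies beyond the band, and sod-4 and ctl-2 differ from 0 mainly where rGO is compared.

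The same question for rGO gave 2 genes at least 2-fold higher than control among the 6 above the filter, gcs-1 and sod-4, against 7.99% of 9097 genes. None was at least 2-fold lower, against 9.88%. The median difference of the 6 genes was 0.73 and that of all genes 0.03; over all 8 measured genes, with no filter, it was 0.29 and sod-3 was counted lower. With the filter at the 75th percentile sod-4 did not enter, and the count of higher genes was 1. Because the comparisons of GO and of rGO with control use the same control array, a gene that was dim or bright there moves in both.

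Set against each other, the exposed arrays differed by less than 2-fold in all 6 genes. None was counted in either direction, against 5.59% of 8978 genes at least 2-fold higher on the GO array and 3.73% at least 2-fold lower. The difference for sod-4, -0.997 or 1.996-fold lower on the GO array, fell just short of the rule. For ctl-2 it was -0.80, for prdx-2 -0.40, for sod-1 -0.29 and for sod-2 -0.21. All 6 genes were lower on the GO array by some amount, as were 48.1% of all genes above the filter, although gcs-1 depended on the probe set. The poly-A controls ran the same way, with all 24 lower for GO than for rGO (median -0.48). The hybridisation controls ran the other way, with 2 of 18 lower for GO (median 0.26). The part of either set of controls in these differences was not tested.

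The catalase genes ctl-2, ctl-1 and ctl-3 lie side by side in that order on 1 chromosome, with 0 annotated genes between neighbours. The probe set annotated to both ctl-1 (the cytosolic catalase) and ctl-3 read 9.86 on the GO array, 10.52 on the rGO array and 10.46 on the control array. It cannot be assigned to either gene. Its difference from control was -0.60 for GO and 0.06 for rGO, so in contrast to ctl-2 the GO array was low and the other two were close.

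The maker's control probe sets for a worm catalase, which read its 3′ end, middle and 5′ end, add a measure along 1 transcript; the sources used here do not say which catalase gene it is. At the 3′ end the values were 9.95 (GO), 10.22 (rGO) and 10.37 (control). In the middle they were 7.10, 8.67 and 7.50, and at the 5′ end 5.23, 7.16 and 5.52, in the same order of arrays. The rGO array was therefore slightly lower than the control array at the 3′ end (-0.15) and higher in the middle (1.17) and at the 5′ end, where the control array was below 6.24 and the difference is at least 0.92. The GO array was lower than control at the 3′ end (-0.42) and in the middle (-0.40); at the 5′ end both arrays were below background and no direction can be read. In these control probe sets the size and sign of the rGO difference thus varied with the part of the transcript read. Such a pattern can belong to the RNA quality or labelling of an array as well as to the catalase gene, and these were not told apart. The sources used here do not say where the probes of ctl-2, sod-4 or the other genes lie along their transcripts. The part of RNA quality or of probe position in any rGO value, those of nnt-1, trxr-1 and gsto-3 included, was not tested.

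**Figure D3:**
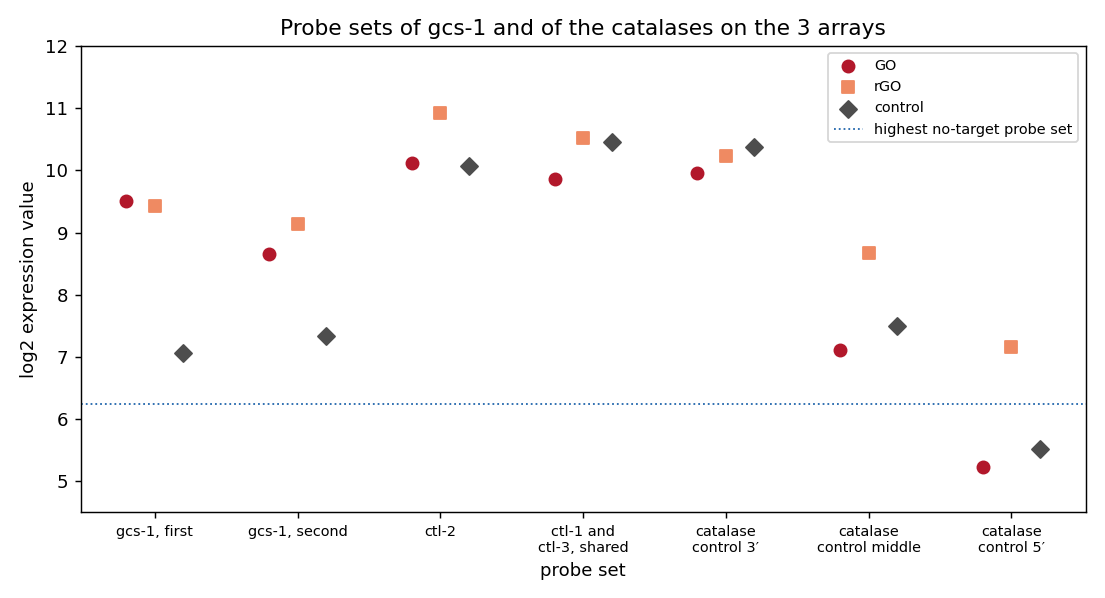
Log2 expression value (vertical axis) of single probe sets (horizontal axis) on the GO (circles), rGO (squares) and control (diamonds) arrays: both probe sets of gcs-1, that of ctl-2, the one shared by ctl-1 and ctl-3, and the 3 catalase controls. The dotted line is the highest no-target probe set at 6.24. Both gcs-1 probe sets have the control array lowest, whereas the rGO array stands above control at the middle and 5′ catalase controls and not at the 3′ one.

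Genes that work with these enzymes were taken from 10 companion lists, described by counts at the 2-fold rule beside the same background as above. That background was 8.43% of genes higher and 9.76% lower for GO against control. For rGO against control it was 7.99% higher and 9.88% lower. Within the glutathione cycle, which recycles glutathione and uses it against peroxides, 1 of 14 genes above the filter was counted lower after GO and none higher (median -0.50). For rGO 2 of 14 were lower and 1 higher (median -0.13). The omega-class glutathione transferase gene gsto-1 read 5.50 (GO), 5.63 (rGO) and 8.03 (control), at least 3.47-fold lower on both exposed arrays. Its relative gsto-3 differed from control by 0.64 (GO) and 1.15 (rGO), and the glutathione peroxidase gene gpx-1 by -0.96 and -1.33. The gene for the next step after gcs-1, glutathione synthetase gss-1, read 8.99 (GO), 9.14 (rGO) and 9.02 (control) and so did not share the pattern of gcs-1; it was singled out after its values were seen.

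In the list for the supply of methionine and of cysteine, a building block of glutathione, 4 of 11 genes were counted lower after GO. After rGO 3 of 11 were lower, and none was higher in either comparison (medians -0.41 and -0.55). Of all genes, 9.76% (GO) and 9.88% (rGO) were lower. The transsulfuration gene cth-1 (cystathionine gamma-lyase) read 8.37 (GO), 7.81 (rGO) and 9.62 (control). For cysl-2, of the cysteine synthase family, the differences from control were -1.34 (GO) and -1.98 (rGO), and for sams-1, an S-adenosylmethionine synthetase, -1.03 and -1.39. With its brightest probe set sams-1 was not counted for GO (-0.93). The methionine synthase gene metr-1 differed by -1.22 (GO) and -0.73 (rGO). The genes named here were thus lower on the arrays on which gcs-1 was higher, while 7 of 11 (GO) and 8 of 11 (rGO) genes of the list differed by under 2-fold. What each product does to the cysteine supply was not tested.

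Of all genes above the filter, 8.43% were higher and 9.76% lower with GO, and 7.99% and 9.88% with rGO. In the thioredoxin and peroxiredoxin system 1 of 10 genes was higher and 1 lower with GO (median -0.07). With rGO 2 were higher and 1 lower (median 0.28). The lower one was msra-1, a methionine sulfoxide reductase, at 10.59 (GO), 9.64 (rGO) and 12.18 (control). The thioredoxin gene trx-3 was higher by 1.08 (GO) and 1.07 (rGO), and the thioredoxin reductase gene trxr-1 by 0.80 and 1.25. Among 7 genes of NADPH supply, nnt-1, the mitochondrial transhydrogenase, was the 1 counted. It read 8.46 on the GO array, 9.46 on the rGO array and 7.42 on the control array, and like sod-4 it was higher with rGO than with GO (difference -1.004). After a further quantile normalisation nnt-1 was not counted for GO against control (0.96). None of 8 peroxisome assembly genes and none of 4 oxidant-producing enzymes was counted in either comparison with control, except prx-10 for rGO (1.01) when its brightest probe set stood for the gene.

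Genes around the transcription factors SKN-1 and DAF-16 were listed with values of some members already known. Of 10 SKN-1 target genes above the filter, 6 were counted lower after GO and 7 after rGO, with none higher (medians -1.16 and -1.08). Of all genes, 9.76% and 9.88% were lower, and 8.43% and 7.99% higher. The list did not include gcs-1, so these counts leave out its higher values. In the rGO count, gst-4, ugt-13 and sdz-8 read 6.53, 6.15 and 6.72 on the rGO array and passed the filter only through the control array. The targets gst-12, gst-14, dhs-8 and cbs-2 were below the filter on every array and are in no count. The glutathione transferase gene gst-4, another standard SKN-1 reporter, read 6.81 (GO), 6.53 (rGO) and 9.49 (control), opposite in direction to gcs-1. The transferases gst-5 (-2.94 and -2.29) and gst-10 (-2.02 and -2.78) and the glucuronosyltransferase ugt-13 (-3.97 and -4.88, with rGO at background and so at least 27.7-fold) were also lower on both. Among 9 genes listed as SKN-1 regulators only mxl-3, a basic helix-loop-helix factor, was counted, at -1.35 (GO) and -1.33 (rGO). Whether mxl-3 acts on SKN-1 was not tested here. The gene skn-1 itself differed by -0.80 and -0.39, and wdr-23, whose product promotes SKN-1 degradation, by -0.35 and -0.02; both were named after their values were seen.

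For DAF-16, 4 of 12 target genes were higher and 2 lower on the GO array (median 0.36). On the rGO array 5 were higher and 1 lower (median 0.22). Of all genes, 8.43% were higher and 9.76% lower for GO, and 7.99% and 9.88% for rGO. The list did not include sod-3. The small heat shock gene hsp-12.6 was higher by 3.63 on both, the metallothionein gene mtl-1 by 3.10 and 3.19, and the ferritin gene ftn-1 by 1.61 and 1.47. The fatty acid desaturase gene fat-5 differed by -1.85 and -1.68, its GO value being at background, and the lysozyme gene lys-7 by -2.04 (GO) and -0.35 (rGO). The gene sod-3 entered neither comparison with control, as its values on the exposed arrays were at background and its control value of 6.63 was below the filter. None of 12 genes of the insulin pathway and other DAF-16 regulators was counted; daf-16 itself, named after its values were seen, differed by -0.50 and -0.36. Between the exposed arrays, nnt-1 and lys-7 (-1.69) were the genes of the 10 lists counted, both lower on the GO array. Of all genes, 3.73% were at least 2-fold lower there and 5.59% higher. With the brightest probe set per gene cysl-1 (1.31) and sams-1 (1.03) were counted higher on the GO array, and lys-7 has no value without probe sets that share probes.

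**Figure D4:**
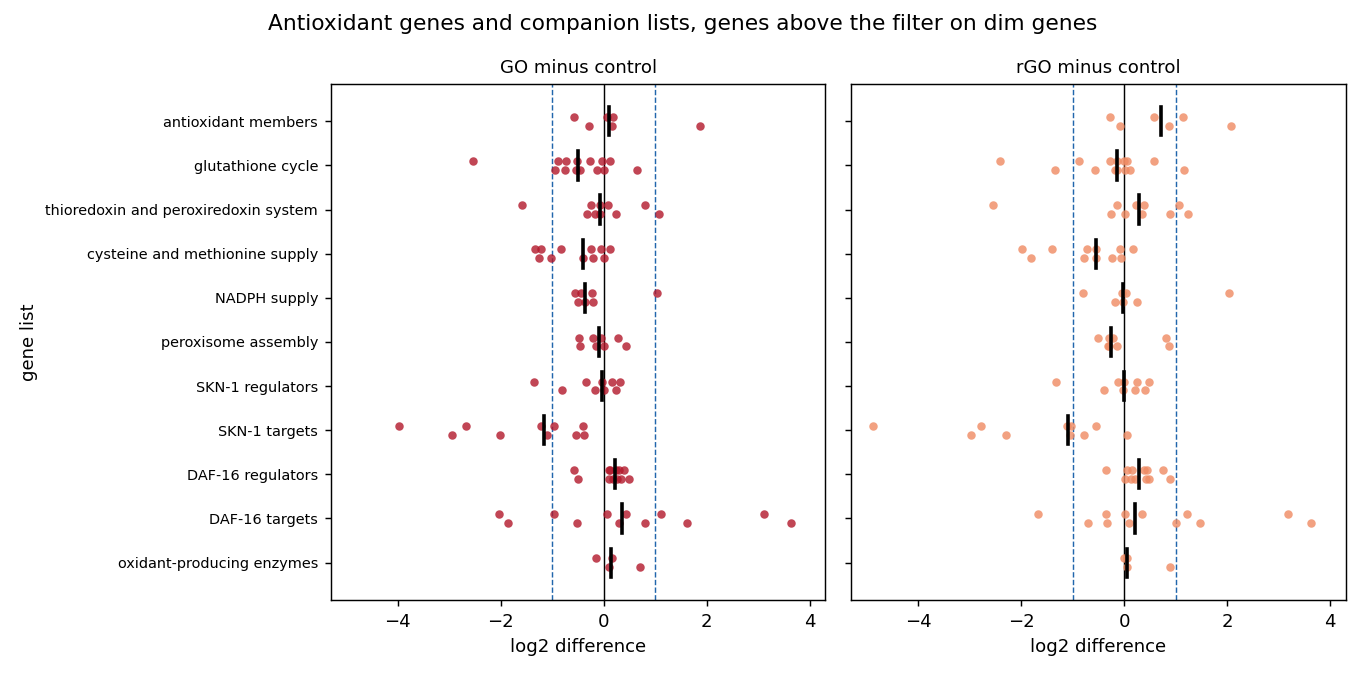
Log2 difference from control (horizontal axes) of every gene above the filter on dim genes in the antioxidant group and in 10 companion lists (vertical axis), for the GO array and the rGO array. Each point is 1 gene, black bars are list medians and dashed lines mark 2-fold. The SKN-1 targets lie mostly to the left of 0 (medians -1.16 and -1.08), while gcs-1 is the point furthest right in the antioxidant group.

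The genes whose differences from control were nearest to those of gcs-1, by Euclidean distance over GO minus control and rGO minus control among 8940 genes, were gldi-4, F47B8.10, hpo-15, ins-22 and ZC395.5. For gldi-4 (5.94) and F47B8.10 (4.92) the control array was below the no-target level, so neither their distance nor their place among the 5 is exact. The other three had distances of 0.18 (hpo-15, at 1.78 and 2.22), 0.22 (ins-22) and 0.23 (ZC395.5, at 1.65 and 2.13). The insulin-like peptide gene ins-22 read 8.69 (GO), 9.01 (rGO) and 7.01 (control). With 3 arrays, such likeness describes 2 numbers per gene.

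Tissue markers also differed between the arrays. For comparison, 8.43% of all genes were at least 2-fold higher and 9.76% lower after GO. After rGO the shares were 7.99% and 9.88%. Of 11 intestine markers, 4 were counted lower after GO and 2 after rGO, with mean log2 levels of 10.75 (GO), 10.71 (rGO) and 11.24 (control). Of 9 neuron markers above the filter, 3 and 2 were higher, with mean levels of 8.93, 8.91 and 8.18 over 10 markers. All 6 sperm markers above the filter were lower on both exposed arrays, with mean levels of 6.14, 7.34 and 8.88 over 7. Of these 7, 6 were below the no-target level on the GO array, 3 on the rGO array and 1 on the control array. All of the 6 except msp-3 entered the comparison of GO with control only through the control array. For rGO this held for spe-11 and spe-26. The marker spe-9 read 6.22 on every array and did not enter, so the count partly reflects the filter. Body wall muscle had 3 of 8 markers lower with GO and 0 with rGO (means 9.66, 10.39 and 10.34). Hypodermis had 4 of 8 higher and 3 lower on the GO array, and 1 higher and 2 lower on the rGO array (means 8.93, 8.56 and 8.88). Oocyte and germline markers, which belong to the labelled adult hermaphrodites, were above the no-target level on all arrays (means 11.01, 11.22 and 10.80, with 1 of 8 higher on each exposed array). The part of these shifts in the antioxidant values was not tested.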

How the data were processed

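Per the submitters' processing notes, the authors used GCOS, Affymetrix Expression Console and RMA (no version given), and each deposited value is the log2 expression of a probe set. RMA corrects background, quantile-normalises the arrays and summarises probes by median polish, so a general change in RNA per worm cannot be seen. Amplification and biotin labelling started from 300 ng of total RNA, per the labels' protocols.

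The table has 22625 probe sets. By the 2016 platform annotation 20766 belong to a single gene, 887 to several and 895 to no gene; 77 more are array controls. Symbols were updated by gene identifier through a RefSeq table of WBcel235 (20701 probe sets matched), and no coordinates were used. Probe sets of 1 gene were averaged. Python 3.11.15 with numpy 2.4.6 and pandas 2.3.3 was used. Where the dimmer array read under 6.24, the fold was taken against 6.24 and given as "at least". With 1 array per condition no test was possible, and the number of arrays limits the precision. Counting was tested on simulated data. All 10 antioxidant genes are named. From each companion list, up to 4 genes with the largest difference among those counted in a comparison are named, and the 5 genes nearest the antioxidant gene furthest from control. Members and lists were chosen with earlier results of these data known. A planned search of promoters for motifs was not run, as no sequences were at hand.

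Alternatives were no filter on dim genes, the filter at the 75th percentile, the brightest probe set per gene, no probe sets that share probes, a further quantile normalisation, centring on the median of all genes and, added after the data were seen, raising values below 6.24 to it.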

Additional observations from a re-analysis of the deposited data

Results flagged for a closer look

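Outside the single-gene probe sets, the middle catalase control probe set was higher on the rGO array than on the control array (1.17). There GO and rGO lay on opposite sides of control, with GO minus rGO at -1.57. The probe set annotated to ctl-1 and ctl-3 together also had GO and rGO on opposite sides of control, with GO minus rGO at -0.67, although its rGO difference from control was only 0.06. These differences were not tested, as each condition has 1 array. At the 5′ catalase control probe set the GO and control arrays were below the no-target level of 6.24, and the rGO array was above that level by 0.92.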

How the results depend on the processing

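No paired analysis was possible because each condition has 1 array. Counts depended on the filter through sod-3, which is at background on both exposed arrays. With no filter on dim genes 1 gene was at least 2-fold lower for GO and 1 for rGO, where the stated counts are 0, and the rGO median over 8 genes was 0.29 in place of 0.73. Without probe sets that share probes the filter falls to 6.26, sod-3 enters, and the counts of lower genes were again 1 and 1. Under that setting sod-1 and ctl-2 had no value, as their only probe sets share probes. With the filter at the 75th percentile sod-4 left, and 1 gene was counted higher for rGO in place of 2. After a further quantile normalisation 1 gene, sod-4 at -1.02, was counted lower in GO minus rGO in place of 0. The difference of gcs-1 from control ranged from 1.83 to 2.44 for GO and from 2.03 to 2.36 for rGO, and GO minus rGO from -0.20 to 0.08, the last with its brightest probe set. For the 6 genes above the filter, filters and the raising of values below 6.24 leave a single gene's difference as it is. Only gcs-1 has several probe sets, so only scaling and centring could move every difference of these 6 genes. The further quantile normalisation moved these differences by at most 0.08 and centring by at most 0.03. For sod-3, below the filter, the raising changed the differences from -1.36 (GO) and -1.0002 (rGO) to -0.39 for each. Of 420 alternative counts for the companion lists, 15 left the range of 1.5 times. The filter at the 75th percentile removed gsto-1, mxl-3 and fat-5 from both comparisons with control. It also removed nnt-1 from that of GO, and trxr-1 and the SKN-1 target sdz-8 from that of rGO. Without probe sets that share probes cysl-2, ftn-1, lys-7 and trxr-1 had no value. A further quantile normalisation took nnt-1 below 2-fold for GO (0.96) and brought gpx-1 past it (-1.02). It also brought the SKN-1 target gst-30 (-1.01) and the DAF-16 target hsp-16.2 (-1.03) past 2-fold for GO. The DAF-16 target hsp-12.3, at 1.005 for rGO, fell below 2-fold with this normalisation (0.974) and with centring (0.972). Centring also brought gst-30 past 2-fold for GO (-1.003). The brightest probe set per gene took sams-1 below it for GO (-0.93) and brought in prx-10 for rGO (1.01) and cysl-1 (1.31) and sams-1 (1.03) for GO minus rGO. No alternative bears on variation between cultures.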
